A study of Homo sapiens with 4 samples.

Results

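Transcripts of spliceosome and hnRNP genes were compared in Huh-7 cells, a human liver cancer line, on 2 arrays of untreated cells and 2 arrays of cells harvested 48 h after transforming growth factor beta (TGF-beta) was added. Both groups grew in the same medium with 10% heat-inactivated fetal bovine serum. No source used here gives the TGF-beta dose, and the labels give no harvest time for the untreated arrays. Members were chosen by a rule on gene symbols alone, set with earlier results of these data known. The rule took genes whose symbols begin as those of the SR proteins (SRSF), the hnRNPs or the SF3A and SF3B subunits. It also took those of the snRNP proteins (SNRP, SNRNP), the PRPF factors, U2AF or the numbered LSM proteins. This gave 78 of the 12165 genes measured, covered by 159 probe sets, and the brightest probe set stands for its gene. Array numbers 1 and 2 recur in both groups, and no label says whether separate cultures were used, so p-values rest on how far these arrays differ, which may be technical. Total RNA came from confluent dishes of this 1 line, and in such bulk RNA fewer cells of a type and less RNA per cell cannot be told apart.

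The spliceosome removes introns from precursor mRNA. U1 snRNP recognises the 5′ splice site, U2AF and then U2 snRNP recognise the branch point and the 3′ splice site, and the U4/U6.U5 tri-snRNP joins to build the catalytic centre. Around this core, SR proteins mostly promote the use of nearby splice sites, and hnRNPs coat the transcript and often repress them, so that the balance of both shapes alternative splicing. Sm proteins form a ring on most spliceosomal RNAs, and LSm proteins form the ring of U6 and, in the cytoplasm, another ring that acts in mRNA decay. In epithelial cells TGF-beta is known to be linked to changes in splice site choice during the epithelial-mesenchymal transition, which these probe set intensities do not measure: they give the level of each splicing factor's transcript.

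As a check of the cells, 11 measured hepatocyte markers had mean intensities of 1449 or more, where the lower quartile of each array lay between 28.8 and 29.2. Endothelial markers stood at 45.2 or less in all 5 cases. Of 7 fibroblast markers LUM was the 1 above 100 and of 4 leukocyte markers CD14 was the 1 above 100, while PTPRC, the leukocyte marker, lay at 30.0. The summed leukocyte marker intensity was 161 and 162 untreated and 227 and 243 treated, a difference that CD14 made up (adjusted p = 0.0167, limma), and its part in the splicing values was not tested. Of the hepatocyte markers 2 were called themselves, APOA1 higher (0.74, adjusted p = 0.0378) and TTR lower (-0.63, adjusted p = 0.047), on the log2 scale. Of the fibroblast markers 6 of 7 had negative values, 2 of them at an unadjusted p under 0.05 (COL1A1 at -0.44 and DCN at -0.53, both dim) and 0 called, with sums of 7476 and 6953 untreated and 7011 and 7519.8 treated. Over all 12165 genes, 149 (1.22%) were called changed at an adjusted p under 0.05 with limma and Benjamini-Hochberg adjustment.

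None of the 78 splicing genes was called changed 48 h after TGF-beta: 0 passed an adjusted p under 0.05 in limma's fit, against 1.22% of all genes. At an unadjusted p under 0.05, 20 of 78 passed (18% of all genes did). Of these, 15 had higher values after TGF-beta (background 9.35%) and 5 lower ones (background 8.6%). Among genes with a mean log2 intensity of at least 6, 17 of 75 members passed, a smaller share than the 25.9% of those 6368 genes. The largest positive differences were those of HNRNPM (1.92-fold), SF3A1 (1.59-fold), SF3A2 (1.55-fold), HNRNPU (1.44-fold) and U2AF2 (1.44-fold), all short of the threshold. Of the members, 47 of 78 had a positive log2 fold change (48.6% of all genes), and the median log2 fold change was 0.07 against -0.006 over all genes. The quartiles of the members lay at -0.08 and 0.22, against -0.13 and 0.13 over all genes.

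The TGF-beta arrays lay above both untreated arrays in 34 members (23.3% of all genes) and below both in 18 (25.9% of all genes), and the arrays of the groups overlapped in the other 26. How many members passed an unadjusted p depended on single arrays. As fits without 1 array leave 1 in a group, the members' median log2 fold change is given in place of those counts. It was 0.0753 without untreated array 1 and 0.0418 without untreated array 2. Without TGF-beta array 1 it was 0.0692 and without TGF-beta array 2 0.0597, where all genes gave -0.0129 to -0.00255 in these fits. In limma-trend, where the prior variance follows brightness, 3 members were called higher (HNRNPM, SF3A1 and SRSF6) and 3 lower (HNRNPC, SNRPD2 and HNRNPA1P33). Without untreated array 1, SF3A1 was called, and without untreated array 2, 6 were: HNRNPM, HNRNPU, HNRNPA0, SRSF2 and U2AF2 higher and HNRNPA1P33 lower. Quantile normalization turned the sign of 1 member, SNRPE, and median centring that of 1, LSM5, both near 0.

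The 95% interval of the log2 fold change lay inside a 2-fold change either way for 74 of 78 members (97.8% of all genes) and inside a 1.5-fold change for 62 (79.4% of all genes). The 4 members whose interval reached past a 2-fold increase were HNRNPM, SF3A1, SF3A2 and HNRNPU. Intervals come from limma's moderated variance over 4 arrays and assume that genes share a common prior.

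**Figure D1:**
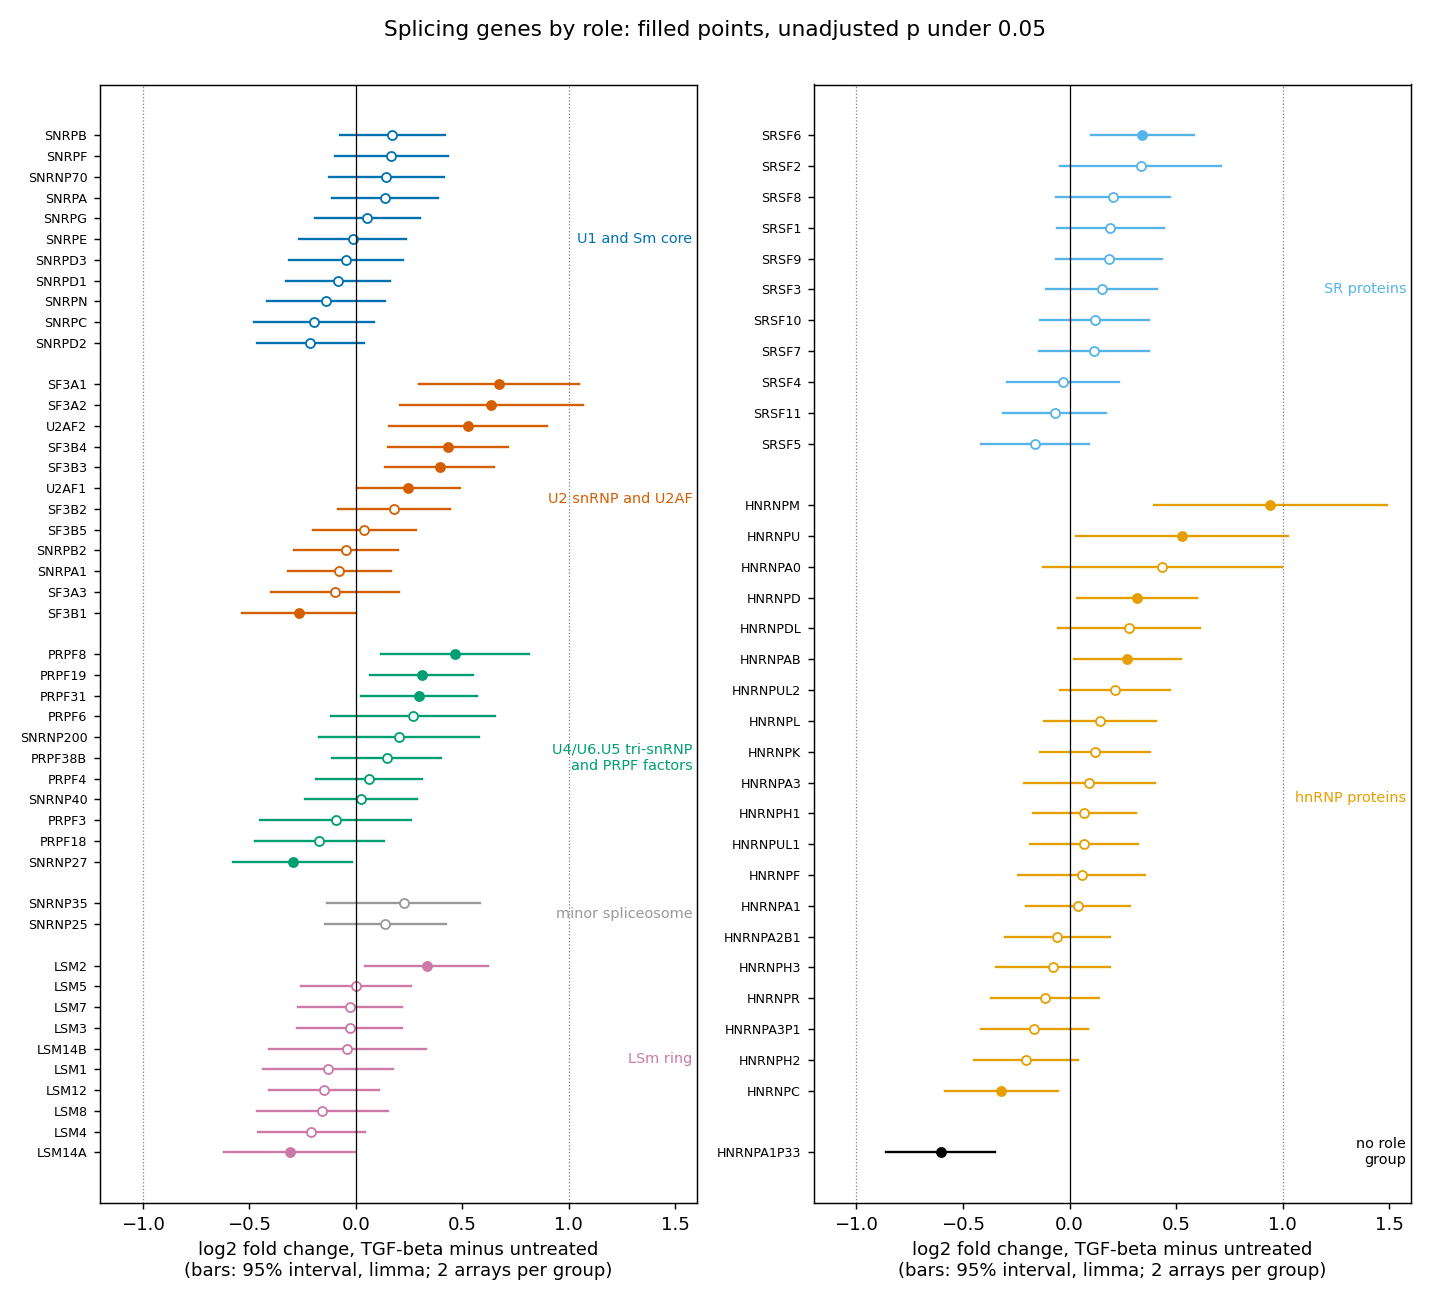
Log2 fold change (horizontal axis, TGF-beta minus untreated) of each of the 78 splicing genes, by role, with its 95% interval from limma as a bar. Filled points are the 20 genes at an unadjusted p under 0.05, and dotted lines mark a 2-fold change. Of the 15 filled points to the right (by the same measure, 9.35% of all genes), 6 are U2 snRNP and U2AF genes and 4 hnRNPs. Of 10 LSm genes, 8 lie left of 0, as do 6258 of all 12165 genes.

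**Figure D2:**
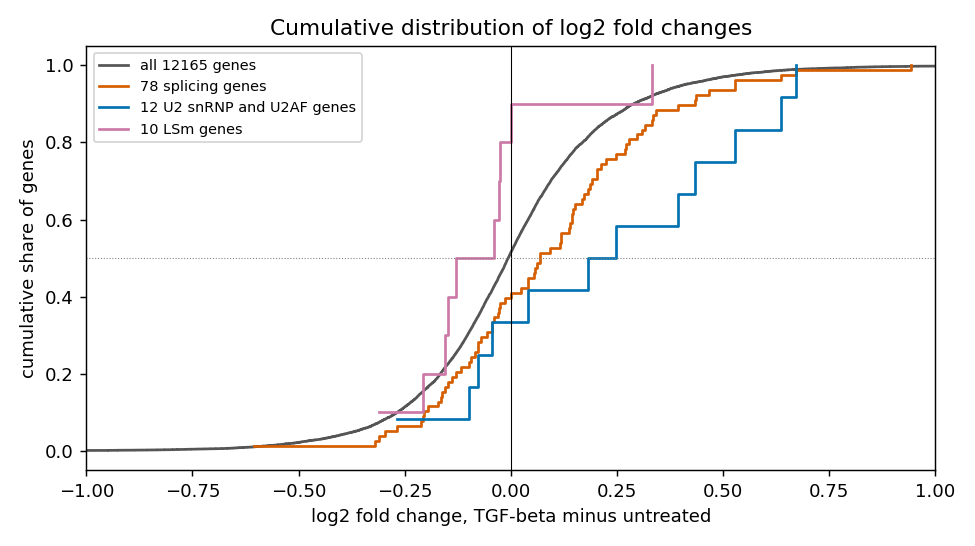
Cumulative share of genes (vertical axis) at or below each log2 fold change (horizontal axis). The curve of the 78 splicing genes crosses the middle line at 0.07 and that of all 12165 genes at -0.006, with the 12 U2 snRNP and U2AF genes to the right and the 10 LSm genes to the left.

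U2 snRNP and U2AF genes held more members at an unadjusted p under 0.05 than any other role group. Of 12, 6 had higher values (9.35% of all genes) and 1 a lower value (8.6% of all genes) by that measure, and 0 were called. In the fit of genes with a mean log2 intensity of at least 6, 25.9% of genes passed it in either direction. Their median log2 fold change was 0.21, with 8 positive values. U2 snRNP binds the branch point through the SF3A and SF3B complexes, and U2AF, a dimer, binds the polypyrimidine tract and the 3′ splice site before it. Among the 8 SF3A and SF3B subunits the median was 0.29, and subunits of the same complex differed in direction.

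SF3A1, a scaffold subunit of SF3A, had intensities of 323 and 261 untreated and 525 and 407 treated. Both TGF-beta arrays were above both untreated ones, with a log2 fold change of 0.67 ± 0.16 (SE, n = 2 per group) and an adjusted p of 0.0879. Leaving out single arrays gave 0.49 (without TGF-beta array 1) to 0.86 (without TGF-beta array 2), and 0.83 without untreated array 1. The mean of its probe sets gave 0.42 (adjusted p = 0.136). SF3A2, its partner that contacts U2 RNA, went from 102 and 81.3 to 168 and 119.7, a log2 fold change of 0.64 ± 0.18 (SE, adjusted p = 0.128). It was 0.39 without TGF-beta array 1 and 0.36 with the mean of its probe sets. The third subunit, SF3A3, stood at 762 and 626 untreated and 663 and 628 treated, so that its groups overlapped (-0.10 ± 0.13, SE). Its sign turned without untreated array 1 (0.04), and its 95% interval was -0.40 to 0.20.

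Within SF3B, SF3B4 (a subunit that contacts RNA next to the branch point) measured 264 and 245 untreated and 372 and 318 treated, a log2 fold change of 0.43 ± 0.12 (SE, adjusted p = 0.12). SF3B3, a large scaffold subunit, measured 475 and 517 and then 633 and 669.7, at 0.39 ± 0.11 (SE, adjusted p = 0.118). Neither gene's groups overlapped, and the mean of probe sets gave 0.22 for SF3B3. SF3B1, the subunit that grips the branch point helix and is often mutated in blood cancers, lay the other way, at 4979.7 and 5015 untreated and 3883 and 4439 treated. Its log2 fold change was -0.27 ± 0.11 (SE, adjusted p = 0.278), or -0.17 without TGF-beta array 1. All 4 probe sets of SF3B1 were lower on both TGF-beta arrays, with values of -0.27, -0.25, -0.22 and -0.24. SF3B2 (0.18) and SF3B5 (0.04), further subunits, did not pass an unadjusted p of 0.05.

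Both U2AF subunits had higher values on the TGF-beta arrays. U2AF2, the large subunit that reads the polypyrimidine tract, had intensities of 301 and 409 untreated and 482 and 532 treated (0.53 ± 0.16, SE, adjusted p = 0.138). The spread between its untreated arrays was wide, and the value was 0.31 without untreated array 1, 0.75 without untreated array 2 and 0.31 with the mean of probe sets. U2AF1, the small subunit that reads the AG at the intron's end, had nearly equal untreated values, 4011 and 4004, and treated values of 4668 and 4851 (0.25 ± 0.10, SE, adjusted p = 0.27). SNRPA1 and SNRPB2, the proteins particular to the U2 particle, stood at -0.08 and -0.04. The other probe sets of SNRPA1 lay further down, at -0.22 and -0.28, both with non-overlapping groups, and the mean of its probe sets gave -0.19.

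The promoters of the U2 snRNP and U2AF genes at an unadjusted p under 0.05 are shown because this role group held the most such members. The motifs and the choice of promoters were settled after values had been seen, so nothing is tested on them. Each is the 250 bases before the start of the gene in RefSeq (GRCh38.p14), read 5′ to 3′ on the gene's strand, for the 6 genes with an entry. For SF3B1, which has 2 listed starts, the more upstream one was used. Capitals mark CCGGAAG, the core bound by ETS factors, and GGGCGG, the GC box, on either strand.
SF3A1, chr22:30356895-30357144, minus strand: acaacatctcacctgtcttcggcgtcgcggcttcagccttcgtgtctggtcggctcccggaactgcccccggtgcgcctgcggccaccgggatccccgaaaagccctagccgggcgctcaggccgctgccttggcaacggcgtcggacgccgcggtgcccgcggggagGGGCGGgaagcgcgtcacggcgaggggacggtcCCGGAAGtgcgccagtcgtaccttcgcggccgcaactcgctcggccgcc
SF3B4, chr1:149927804-149928053, minus strand: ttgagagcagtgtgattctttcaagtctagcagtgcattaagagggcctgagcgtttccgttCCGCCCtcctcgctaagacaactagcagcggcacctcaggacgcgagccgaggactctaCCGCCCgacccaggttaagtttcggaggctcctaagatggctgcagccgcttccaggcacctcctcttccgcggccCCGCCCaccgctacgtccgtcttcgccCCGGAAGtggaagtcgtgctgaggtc
SF3A2, chr19:2236574-2236823, plus strand: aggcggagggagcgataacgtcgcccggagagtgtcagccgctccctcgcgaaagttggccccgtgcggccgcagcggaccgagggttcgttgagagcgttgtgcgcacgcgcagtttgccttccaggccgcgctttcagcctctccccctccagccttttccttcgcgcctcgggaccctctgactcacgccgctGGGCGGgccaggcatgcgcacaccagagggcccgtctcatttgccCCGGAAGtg
U2AF2, chr19:55654785-55655034, plus strand: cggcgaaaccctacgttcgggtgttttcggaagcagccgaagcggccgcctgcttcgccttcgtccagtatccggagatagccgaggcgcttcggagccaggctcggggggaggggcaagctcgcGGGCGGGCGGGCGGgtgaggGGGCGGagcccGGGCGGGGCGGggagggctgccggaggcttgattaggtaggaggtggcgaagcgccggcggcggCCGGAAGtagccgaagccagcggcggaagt
U2AF1, chr21:43107571-43107820, minus strand: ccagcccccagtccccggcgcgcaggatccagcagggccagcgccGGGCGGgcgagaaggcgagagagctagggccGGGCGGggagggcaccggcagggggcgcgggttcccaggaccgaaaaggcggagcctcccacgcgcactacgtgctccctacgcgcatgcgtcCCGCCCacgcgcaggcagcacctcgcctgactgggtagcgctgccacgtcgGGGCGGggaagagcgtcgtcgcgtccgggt
SF3B1, chr2:197435094-197435343, minus strand: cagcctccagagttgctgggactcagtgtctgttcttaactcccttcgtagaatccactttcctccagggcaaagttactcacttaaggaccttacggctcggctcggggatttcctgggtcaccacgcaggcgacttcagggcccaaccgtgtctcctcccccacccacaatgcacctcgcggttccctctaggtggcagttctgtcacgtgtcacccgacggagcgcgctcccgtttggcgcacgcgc

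The ETS core stood once in each of the SF3A1, SF3B4, SF3A2 and U2AF2 promoters and was not found in the windows of U2AF1 and SF3B1. Of 11 U2 snRNP and U2AF genes with a promoter entry 8 held it, including SF3A3, SF3B2, SNRPA1 and SNRPB2, which did not pass an unadjusted p of 0.05. Over 68 members with an entry 23 (33.8%) held it, against 12.7% of the 9711 measured genes with an entry and 8.78% of all 27305 promoters. For this and the other motifs, members on chromosome 8 (LSM1) were left out, while the sets set beside them were not cut this way. Of the members with an entry, 5 of 14 with higher values at an unadjusted p under 0.05, 1 of 3 with lower values and 17 of 51 of the rest held it.

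The GC box was in 60.3% of member promoters and in 60.2% of those of measured genes (42.2% of all promoters). CAGAC, a short element that SMAD proteins bind, was in 36.8% of member promoters and 36.5% of those of measured genes (37.9% of all). CACGTG, the E-box of MYC and its relatives, was in 10.3% of member promoters, 8.26% of those of measured genes and 6.46% of all. CCAAT was in 44.1%, 35.6% and 33% of these sets, and TATAAA in 7.35%, 8.18% and 11.2%. Each motif was searched on both strands of the 250 bases, the GC box and the ETS core did not share bases in the promoters shown, and a match is a description of letters, not of a bound site.

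Genes of the U4/U6.U5 tri-snRNP and the PRPF factors numbered 11. At an unadjusted p under 0.05, 3 had higher values (9.35% of all genes) and 1 a lower value (8.6% of all genes). None was called, and the median was 0.15. PRPF8, the large U5 protein at the heart of the catalytic centre, measured 459.9 and 540.5 untreated and 776 and 612 treated, at 0.47 ± 0.15 (SE, adjusted p = 0.161). TGF-beta array 1 was its highest value, and without that array the log2 fold change was 0.29. PRPF19, the ubiquitin ligase that gives its name to the PRP19 complex, was steady within groups, with 1454 and 1493 untreated and 1819.6 and 1833 treated (0.31 ± 0.10, SE, adjusted p = 0.18). Leaving out single arrays kept PRPF19 between 0.29 and 0.33.

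PRPF31, a U4/U6 protein needed to assemble the tri-snRNP, had a log2 fold change of 0.30 ± 0.12 (SE) from its brightest probe set, at 503 and 577 and then 678 and 647, while its other probe sets gave -0.11 and -0.04. SNRNP27, a tri-snRNP protein with an RS domain, was lower on both TGF-beta arrays, at 1336 and 1180.5 untreated and 972 and 1076 treated (-0.30 ± 0.12, SE, adjusted p = 0.254). Its second probe set, of similar brightness, gave -0.03 with overlapping groups, and the mean of both was -0.16. SNRNP200, the helicase that unwinds U4 from U6, measured 670.4 and 909.6 untreated and 955 and 846 treated, so its groups overlapped. PRPF6 (0.27), a bridge of the tri-snRNP, and PRPF18 (-0.17), a factor of the second step, overlapped as well, as did SNRNP40 (0.02), PRPF4 (0.06) and PRPF3 (-0.09). PRPF38B, a dim member, stood at 0.15. The minor spliceosome, which removes a rare class of introns, was represented by SNRNP35 (0.22) and SNRNP25 (0.14), both overlapping between groups.

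U1 and Sm genes lay on both sides of 0. Among 11, 5 were positive and 6 negative, 0 passed an unadjusted p of 0.05, and the median was -0.01. SNRPB, the Sm B protein, had the highest value of the group, with 9416 and 8839 untreated and 10272 and 10284 treated (0.17 ± 0.11, SE), and SNRPF (0.17), another ring protein, came next. SNRPD2, the Sm D2 protein, lay lowest, with 19684 and 18373 untreated and 16086 and 16755 treated (-0.21 ± 0.11, SE, adjusted p = 0.352). The other ring proteins lay between, with SNRPG at 0.05, SNRPE at -0.01 (0.01 under quantile normalization), SNRPD3 at -0.05 and SNRPD1 at -0.08.

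The proteins of the U1 particle were SNRNP70 (0.14), SNRPA (0.14) and SNRPC, which stood at 2566 and 2210.1 untreated and 2001 and 2163 treated (-0.20 ± 0.12, SE). SNRPN, the imprinted relative of SNRPB known from neurons, was read from its 1 single-gene probe set. Probe sets of several genes were left out, and 11 of them match the symbol rule in at least 1 gene. The SNRPN probe set was at the floor of the arrays, with 25.2 and 24.2 untreated and 24.1 and 20.8 treated, below the lower quartile of every array. Its log2 fold change was -0.14, between values that are at background.

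LSm genes had mostly negative values: 8 of 10 lay below 0 (9 of 10 under median centring), where 6258 of all 12165 genes did. Their median was -0.08, with 0 calls. LSM2, a protein of the U6 ring and of the cytoplasmic decay ring, was the highest, with 465 and 390.4 untreated and 520.3 and 554 treated (0.33 ± 0.12, SE, adjusted p = 0.222), or 0.21 without untreated array 2. LSM14A, a protein of cytoplasmic mRNA granules and not of the U6 ring, measured 448 and 539.8 untreated and 420.3 and 374 treated (-0.31 ± 0.13, SE, adjusted p = 0.278). Its other probe sets gave -0.08 and -0.09 with overlapping groups, the mean of all was -0.16, and without untreated array 2 the value was -0.17. LSM4 followed at -0.21, with 3558 and 3759 and then 3078 and 3259, its groups not overlapping, and its other probe sets gave -0.08 and -0.07. LSM3 and LSM7 stood at -0.03 and -0.03 and LSM5 at 6e-05, with -0.02 under median centring, and the untreated and treated arrays of each overlapped. LSM1, which marks the cytoplasmic ring, and LSM8, which marks the nuclear one, had values of -0.13 and -0.16. LSM12 stood at -0.15 and LSM14B, near the floor of the arrays, at -0.04.

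Of 11 SR proteins, 8 lay above 0 and their median log2 fold change was 0.15. SRSF4 (-0.03) was the 1 gene whose groups overlapped. In 8 of 11 the TGF-beta arrays lay above the untreated ones (23.3% of all genes) and in 2 below (25.9%), and SRSF6 was the 1 that passed an unadjusted p of 0.05. SRSF6 had close values within each group, with 1984 and 2055 untreated and 2559 and 2556 treated (0.34 ± 0.10, SE, adjusted p = 0.144), and its other probe set gave 0.44 ± 0.16 (SE). SRSF2, which also acts in transcription elongation, measured 2517 and 3506 untreated and 3714 and 3774 treated (0.33 ± 0.16, SE). Untreated array 1 was its low value, and without that array the log2 fold change was 0.09.

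SRSF1, a founding SR protein and known oncogene product, had intensities of 4607 and 4976 and then 5588 and 5354 (0.19 ± 0.11, SE, adjusted p = 0.411), and its 3 other probe sets gave -0.00233, 0.07 and -0.08. SRSF3, SRSF7, SRSF8, SRSF9 and SRSF10 had values of 0.15, 0.11, 0.20, 0.19 and 0.12. For SRSF7 and SRSF3 the dimmer probe sets gave larger differences: 0.19, 0.37 and 0.31 for SRSF7 and 0.21 and 0.30 for SRSF3. On the other side were SRSF5, at 1646 and 1784 untreated and 1564 and 1499 treated (-0.16 ± 0.11, SE), and SRSF11 (-0.07). The dimmer probe sets of SRSF11 lay further down, at -0.49 ± 0.11 and -0.39 ± 0.12 (SE), with adjusted p of 0.079 and 0.167 in limma's fit over all 19724 probe sets.

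The hnRNP group held 20 genes, of which 14 were positive (48.6% of all genes), with 0 calls and a median of 0.08. Past the unadjusted threshold, 4 had higher values (9.35% of all genes) and 1 a lower value (8.6% of all genes). HNRNPM, a splicing repressor with a part in the epithelial-mesenchymal transition, had the largest value of all members. Its intensities were 484 and 848 untreated and 1231 and 1231 treated, a log2 fold change of 0.94 ± 0.23 (SE, adjusted p = 0.0943). The treated arrays were alike and the untreated ones far apart, so that the value was 0.54 without untreated array 1 and 1.35 without untreated array 2. Its second probe set was near the floor and gave -0.02.

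HNRNPU, a nuclear scaffold and RNA-binding protein, and HNRNPA0 shared this pattern. HNRNPU had 1187 and 1949 untreated and 2236 and 2154 treated (0.53 ± 0.21, SE), with 0.17 without untreated array 1 and 0.25 for the mean of its probe sets. HNRNPA0, known for binding AU-rich elements, had 873 and 1547 untreated and 1501 and 1645 treated (0.44 ± 0.24, SE), and 0.02 without that array. In both genes untreated array 1 was the lowest of the 4 arrays.

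HNRNPD (AUF1, which directs the decay of AU-rich mRNAs) measured 2741 and 3235 untreated and 3765 and 3656 treated (0.32 ± 0.12, SE, adjusted p = 0.229). Of its 5 other probe sets 3 gave 0.28, 0.37 and 0.66, and the dimmest ones -0.41 and 0.04. HNRNPD was 0.20 without untreated array 1. HNRNPAB, a relative of HNRNPD, went from 3541 and 3670.2 to 4196 and 4515 (0.27 ± 0.11, SE). HNRNPC, which binds uridine tracts and keeps cryptic exons silent, was the lowest of the group, at 6818 and 6475 untreated and 5020.0 and 5649 treated (-0.32 ± 0.11, SE, adjusted p = 0.204). All 4 of its probe sets were negative, the other 3 at -0.15, -0.08 and -0.07. HNRNPH2 lay near it at -0.20.

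Among the bright, classical hnRNPs, HNRNPA1, an hnRNP that antagonises SR proteins, had 14429.5 and 14932 untreated and 14890.4 and 15295 treated (0.04 ± 0.10, SE, 95% interval -0.20 to 0.28). HNRNPA2B1 stood at -0.06 (95% interval -0.30 to 0.19) and HNRNPH1 at 0.07 (-0.17 to 0.31). HNRNPK, which binds C-rich sequences, measured 5902 and 6369.9 and then 6912 and 6417 (0.12 ± 0.11, SE), with 0.30 from its other probe set. These intervals are the precision of 4 arrays, and an adjusted p above the threshold does not show equal levels. HNRNPL (0.14), HNRNPF (0.06), HNRNPR (-0.12), HNRNPA3 (0.09), HNRNPDL (0.28), HNRNPH3 (-0.08), HNRNPUL1 (0.07) and HNRNPUL2 (0.21) likewise did not pass an unadjusted p of 0.05, nor did the dim HNRNPA3P1 (-0.16), listed under a pseudogene.

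The member with the smallest p carries an unsettled name. The probe set listed under HNRNPA1P33, a pseudogene of HNRNPA1, measured 364 and 357 untreated and 226 and 248 treated, a log2 fold change of -0.60 ± 0.11 (SE, adjusted p = 0.0517). Adjusted p lay between 0.0304 and 0.0469 under median centring, with an offset of 16, with the mean of probe sets and in limma-trend. With a replicate block it was lower still, and the probe set was called there too. The probe set was not called under quantile normalization (0.0621) or among genes with a mean log2 intensity of at least 6 (0.0563). Leaving out single arrays gave log2 fold changes from -0.54 (without TGF-beta array 1) to -0.67 (without TGF-beta array 2). The sequence accession that the platform gives for it is that of ETAA1, an activator of the ATR kinase in the replication stress response, in RefSeq. It belongs to no role group here, and without it 77 members have a median of 0.07, 15 higher and 4 lower values at an unadjusted p under 0.05, and a smallest adjusted p of 0.0879. For 39 members the accession of the probe set names a RefSeq transcript, and in the other 38 the symbols were the same.

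**Figure D3:**
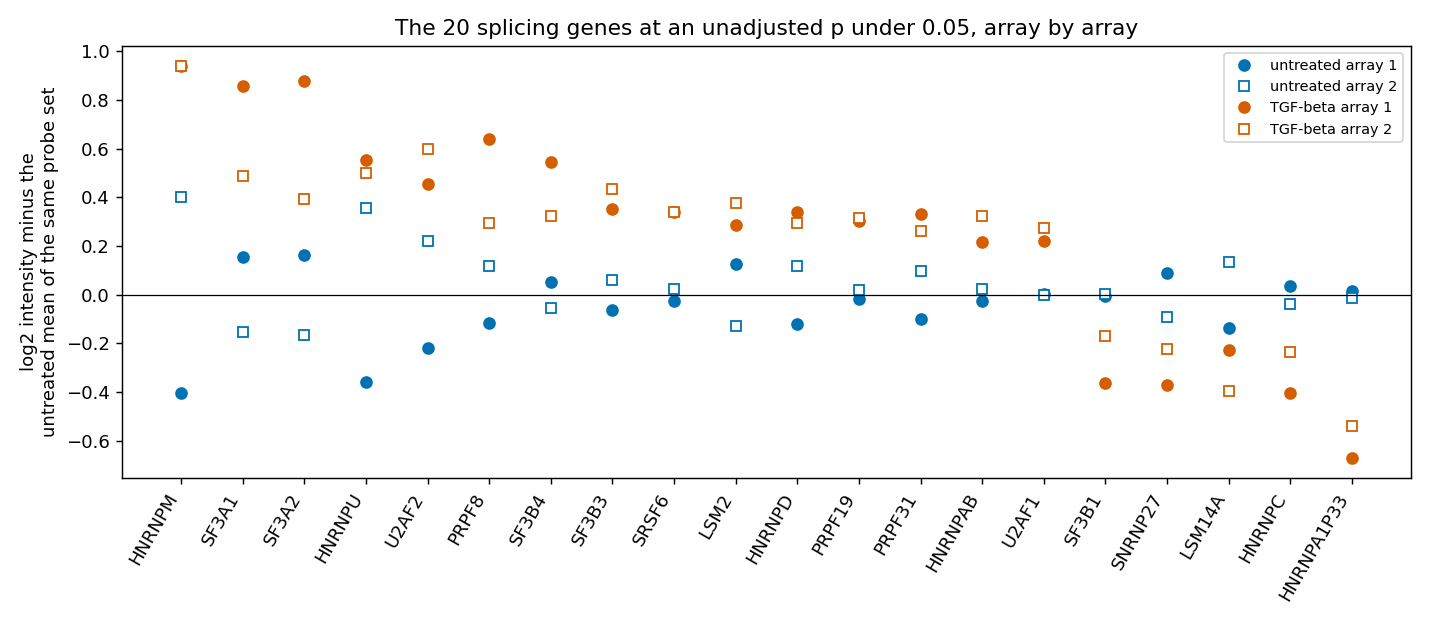
Log2 intensity minus the untreated mean of the same probe set (vertical axis) on each of the 4 arrays, for the 20 splicing genes at an unadjusted p under 0.05. The genes were picked by a p from these same arrays, which favours groups that do not overlap, and none of the 20 overlaps. Over all genes, the TGF-beta arrays lay above both untreated arrays in 23.3% and below both in 25.9%. The untreated arrays lie far apart for HNRNPM, HNRNPU and U2AF2, with array 1 the lower one.

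Untreated array 1 stood below untreated array 2 by over 0.4 on the log2 scale in 7 of 78 members (4.87% of all genes), and in 0 members the reverse was seen, since 7 members in all differed by that much either way (8.05% of all genes). These were HNRNPM, HNRNPU, HNRNPA0, SRSF2, U2AF2, SNRNP200 and PRPF6. Between the TGF-beta arrays 2 members differed by over 0.4 (4.69% of all genes), SF3A2 and LSM14B. The median absolute difference over the members was 0.108 for the untreated pair, 0.0872 for the treated pair, and from 0.116 to 0.224 between arrays of different groups, where all genes gave 0.128, 0.115 and 0.147 to 0.167. RNA quality was not measured here, as 0 control probe sets are among the values, and its part in these gaps was not tested.

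Of the 45 members with more than 1 probe set, all the others pointed the same way as the brightest in 31 and at least 1 pointed the opposite way in 14. The log2 fold changes of a member's probe sets spanned a median range of 0.188. In a fit over all 19724 single-gene probe sets, 175 (0.887%) were called and 0 of the 159 splicing ones were, while 27 of these had higher values (8.39% of all probe sets) and 9 lower ones (8.12%) at an unadjusted p under 0.05. SF3A1 gave 0.67, 0.42 and 0.16 from its 3 probe sets, U2AF2 0.53, 0.22 and 0.19, SF3A2 0.64 and 0.07, and SF3B3 0.39 and 0.05. The dimmer probe sets of these 4 genes had the smaller values. The brightest probe sets of 9 members carry the suffix of designs that may hybridise to similar transcripts, among them those of HNRNPA1, HNRNPC, HNRNPD, HNRNPU, SF3B1, SF3B4 and SRSF2, so related genes or pseudogenes can contribute to them.

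**Figure D4:**
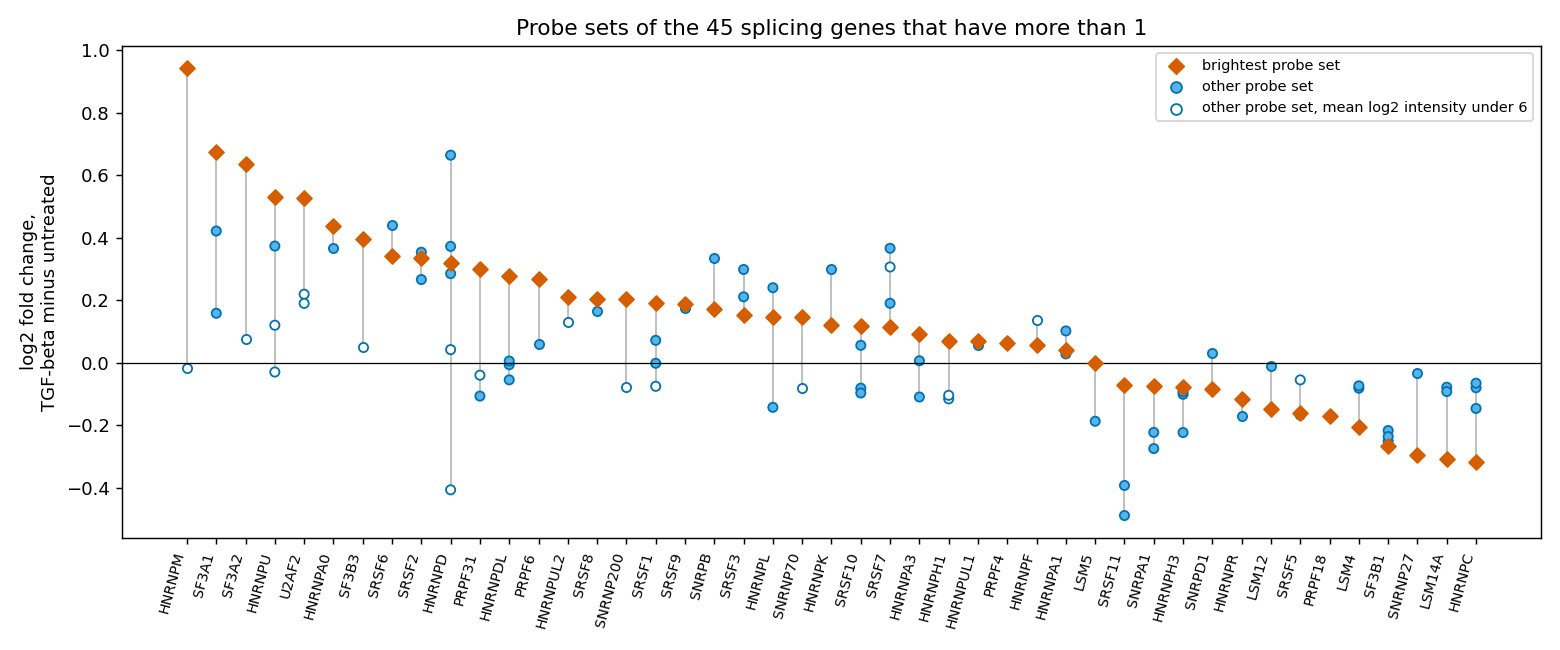
Log2 fold change (vertical axis) of every probe set of the 45 splicing genes that have more than 1, ordered by the brightest probe set (diamonds). Circles are the other probe sets, open where the mean log2 intensity was under 6. The 4 probe sets of SF3B1 lie together below 0, while HNRNPM has a second probe set near 0.

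Other genes of the splicing machinery, from 8 lists of partners that the symbol rule does not reach, are given beside the members. Of 149 measured genes 1 was called (1.22% of all genes were). Past the unadjusted threshold, 26 had higher values (9.35% of all genes) and 6 lower ones (8.6% of all genes). Positive values were seen in 86 (48.6% of all genes), and the median log2 fold change was 0.04. The call was CHERP, a regulator of splicing tied to the U2 particle, which rose 1.70-fold, from 199 and 214 to 389 and 319 (0.77 ± 0.13, SE, adjusted p = 0.044). The call was lost under quantile normalization (adjusted p = 0.0597) and among genes with a mean log2 intensity of at least 6 (adjusted p = 0.0546). It was also lost with the mean of its probe sets, at a log2 fold change of 0.38. Without TGF-beta array 1 the log2 fold change of CHERP was 0.63, and without TGF-beta array 2 it was 0.91. CHERP was the 1 call among 20 measured partners of U2 and the tri-snRNP. Their median was 0.07, and 4 had higher values with an unadjusted p under 0.05 (9.35% of all genes).

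Among 15 DEAH and DEAD-box helicases, which drive the rearrangements of the spliceosome, none was called. The same unadjusted threshold is used for each list that follows, and over all genes 9.35% were higher and 8.6% lower by it. Of the helicases 3 had higher values and 1 a lower value, and the median was 0.19. DDX39A, an mRNA export helicase, had the smallest p (0.34 ± 0.10, SE, adjusted p = 0.151). The 15 genes of the PRP19 complex and second-step factors had 0 calls, 2 higher and 0 lower, and a median of 0.004, with SRRM2, a large scaffold protein of nuclear speckles, at 0.65 ± 0.19 (SE). Exon junction and export genes had 0 calls among 16, 5 higher and 1 lower, and a median of 0.04. THOC2, of the THO export complex, was the lower one, at -0.53 ± 0.12 (SE, adjusted p = 0.0809). THOC1 (0.29) and THOC5 (0.26), named after their values were seen, were among the higher ones.

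Kinases and partners of SR proteins had 0 calls among 16, 2 higher and 1 lower, and a median of -0.007, with SAFB2, a chromatin and RNA-binding protein, at 0.62 ± 0.18 (SE). In the SMN complex and snRNP assembly, where Sm rings are loaded, 0 of 12 were called and 1 was higher, WDR77 (a partner of the methyltransferase PRMT5 that modifies Sm proteins), at 0.58 ± 0.13 (SE, adjusted p = 0.0774). That list had 8 negative values of 12 and a median of -0.09. Cleavage and polyadenylation factors had 0 calls among 17, 2 higher and 1 lower, and a median of 0.16, with CPSF1 at 0.48 ± 0.13 (SE). The lower genes of the cleavage, SR partner and helicase lists, likewise named after their values were seen, were NUDT21 (-0.40), PNISR (-0.31) and AQR (-0.40).

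Regulators of alternative splicing numbered 39 measured genes, with 0 calls and a median of 0.04. At the unadjusted threshold 7 had higher values (9.35% of all genes) and 2 lower ones (8.6% of all genes). The lower ones, named after their values were seen, were MBNL3, a relative of MBNL1, at 1138 and 919 untreated and 529.7 and 691 treated (-0.76 ± 0.16, SE, adjusted p = 0.0708), and PTBP3, a relative of PTBP1, at -0.43 ± 0.11 (SE, adjusted p = 0.0953). PTBP1, the polypyrimidine tract binding protein, measured 1402 and 1809 untreated and 2465 and 2246 treated (0.56 ± 0.14, SE, adjusted p = 0.101). KHSRP, a KH-domain protein of splicing and decay, had the smallest p (0.51 ± 0.11, SE, adjusted p = 0.0601). ESRP1, an epithelial splicing regulator, was at the floor of the arrays with 26.8 and 21.2 untreated and 21.7 and 23 treated. ESRP2, its relative, measured 110.3 and 90.1 and then 133 and 139.8 (0.45 ± 0.13, SE, adjusted p = 0.125), so the treated arrays were the higher ones. RBFOX2 (0.33 ± 0.22, SE) and MBNL1 (0.02 ± 0.11, SE), regulators with a part in mesenchymal and muscle splicing, overlapped between groups. MBNL1 turned negative with the mean of its probe sets (-0.04). MYC, a transcription factor that binds the E-box, measured 292 and 312 untreated and 453 and 432 treated (0.55 ± 0.11, SE, adjusted p = 0.0558 in limma).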

How the data were processed

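RNA from Huh-7 cells was measured on 4 one-colour arrays, 2 per group. The authors deposited a linear intensity for each of 22215 probe sets, made with affy per the submitters' processing notes. The sources used here do not give the background correction, the normalization or the summary method. The log2 of each intensity was taken as deposited, without offset or further scaling. Of the probe sets, 19724 carry 1 gene symbol in the platform annotation, 568 several and 1923 none, and those with several or none were left out. The brightest probe set stood for each gene. TGF-beta was compared with untreated cells by limma 3.58.1 (R 4.3.3; lmFit and eBayes) over 12165 genes, with two-sided tests, Benjamini-Hochberg adjustment and calls at an adjusted p under 0.05. All adjusted p-values come from this fit unless another is named.

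The members and lists were chosen with earlier results of these data known. Genes named by rule were, in each role group, the 2 with the largest positive and the 2 with the most negative log2 fold changes (1 each in small groups), 8 members of known role, each list's called gene or the gene with the smallest p, 5 splicing regulators and MYC. Values were already known when the other members, probe sets and promoters were picked for description. The fit was tested on simulated data with known changes, with 200 changed genes in each of 20 runs and noise drawn from the fit's prior. Of changes of 0.5 on the log2 scale 9.55% were called, and of changes of 1, 90.8%, with 4.93% of calls false. Differences near 0.5 or smaller would thus mostly go uncalled under that noise. The 4 arrays limit the precision. Alternatives were quantile normalization, median centring, an offset of 16, a filter on dim genes, the mean of probe sets, limma-trend, a replicate block, each array left out, and updated symbols. Leaving out HNRNPA1P33 was added after seeing the data.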

Additional observations from a re-analysis of the deposited data

How the results depend on the processing

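No setting reversed the sign of the members' median log2 fold change, which was 0.0683 and moved to 0.0947 under quantile normalization, 0.0486 under median centring, 0.0929 without dim genes, 0.0481 with the mean of probe sets, and 0.0418 to 0.0753 when single arrays were left out. The members called were 0 higher and 0 lower. Median centring, an offset of 16 and the mean of probe sets each called 1 lower, limma-trend called 3 higher and 3 lower, and leaving out single arrays gave 0 to 5 higher and 0 to 1 lower. Members at an unadjusted p under 0.05 were 15 higher and 5 lower. The lower ones became 2 under quantile normalization, 8 with the offset, 3 without dim genes and 3 with the mean of probe sets. Both counts depended on which single array was left out. Over all genes, 149 calls became 63 under quantile normalization, 57 without dim genes and 616 in limma-trend, and 0 to 523 with single arrays left out. Without TGF-beta array 1 or 2, limma called 0 genes, with 1326 and 1563 at an unadjusted p under 0.05. With 1 array in a group, that array is assumed to vary like the others.

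With the array number as a replicate block, 1229 genes, 9 members higher and 1 lower were called. No label says that the numbers pair the arrays. The correlation of the within-group differences was 0.00966 over 12165 genes. With a single difference per group, this value cannot tell whether the arrays were paired. Updated symbols gave the same 78 members.

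Of 504 values of 46 named genes, 445 kept direction and side of the threshold, 45 newly passed, 5 no longer passed (all CHERP) and 9 reversed. LSM5 became -0.0196 under median centring and -0.0635 with the mean of probe sets, and ranged from -0.0764 (without untreated array 2) to 0.0765 with single arrays left out. MBNL1 became -0.0438 with the mean of probe sets and ranged from -0.0569 (without untreated array 1) to 0.106. SF3A3 ranged from -0.241 to 0.0435 and ESRP1 from -0.262 to 0.0730, both highest without untreated array 1. The causes were not tested. Values near the floor, such as SNRPN, LSM14B and ESRP1, are limited by background signal.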
